A study of Homo sapiens with 6 samples.

Results

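SLPI encodes the secretory leukocyte protease inhibitor, a small secreted protein of mucosal epithelia. It was described together with 7 genes that share its protein family or its stretch of chromosome 20, namely PI3, WFDC1, WFDC2, WFDC3, WFDC5, WFDC12 and SEMG1. These were 8 of the 14232 genes tested. The group was chosen from earlier results of the comparison described here: SLPI was selected on its difference between knockdown and control cells, and the other 7 genes were added for their kinship or position. The differences of the 8 genes are therefore given as a description. Where the adjusted p of SLPI is mentioned, it belongs to the comparison that selected the gene and is not a test of it. Each gene was found by its exact symbol in the array annotation, and each of the 8 was represented by 1 transcript cluster, a set of probes for a transcribed locus.

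The cells were Ishikawa H, a line from a grade 1, highly differentiated endometrioid adenocarcinoma of the endometrium that carries the p53 mutation G186T according to the labels. In the MTDH knockdown group a short hairpin RNA (shRNA) was stably expressed against MTDH (metadherin), a protein linked to drug resistance. The other group was labelled MTDH control, and its construct is not named in the labels. Both groups had the same culture conditions and no drug treatment is recorded. According to the labels, single puromycin-resistant clones were grown up and their MTDH protein was checked by Western blot. A group may therefore stem from 1 clone, and with 3 arrays per group any p-value measures only the spread between these samples. Clone and knockdown cannot be told apart.

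Proteins with a whey acidic protein (WAP) domain hold a small fold stapled by disulfide bonds, and several of them block serine proteases. SLPI and elafin, the product of PI3, inhibit neutrophil elastase, limit tissue damage at inflamed mucosal surfaces and have antimicrobial activity. SLPI is made by glandular epithelia, the endometrium and cervix among them. Most WAP genes in human lie in a cluster on chromosome 20, the WFDC locus, which also holds the semenogelin genes.

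The columns held log2 expression values, so that a difference of 1 is a doubling. Among the genes tested the median of an array lay between 4.59 and 4.86. Taken across genes, which are no replicates, 2 arrays correlated at 0.90 to 0.980, and the lowest values were those of control replicate 3. A step in row order was located as the row that best split the table by the arrays' deviations from each row's median. Such a search in the same 6 arrays returns a row for any table, and the step itself was not tested. It was placed after row 9325 of 22011, and all 8 genes lay after it. In that portion of the table the median log2 difference between knockdown and control was -0.16 over 8020 genes, against -0.08 over all genes tested, and 73.6% of its genes had a negative difference. MTDH itself read 5.77, 5.89 and 5.84 on the knockdown arrays, against 6.89, 7.04 and 6.63 on the control arrays, without overlap. Of 12 epithelial markers measured, none passed the test, and their mean log2 value was 6.15 to 6.34 on knockdown arrays and 6.36 to 6.41 on control arrays. The lists for blood, stromal and endothelial cells had means between 3.57 and 4.43, below the median of every array.

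SLPI was lower in the knockdown cells. Its log2 value was 4.80, 4.76 and 5.31 on the 3 knockdown arrays and 7.0, 5.98 and 6.50 on the 3 control arrays. Every knockdown array lay below every control array, and a gap of 0.67 separated the highest knockdown value from the lowest control value. The means were 4.96 ± 0.31 in knockdown and 6.49 ± 0.51 in control cells (SD, n = 3 each), which is 2.90-fold lower in knockdown. The log2 difference was -1.54 ± 0.26 (SE). The 95% interval of the fit ran from -2.11 to -0.96. Among the 32 genes that fell over the whole table, SLPI had the tenth largest fall. Whether fewer cells made SLPI or each cell made less cannot be told apart in such bulk RNA.

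SLPI also differed in its place within each array, which rests on the same values that selected the gene. Ranked among all genes tested on the same array, it stood at the 53.4th, 55.0th and 67.9th percentiles in knockdown cells, against the 91.9th, 79.4th and 90.1st in control cells. Probes differ in brightness, so the rank marks a place on the array and not the amount of transcript. Among knockdown arrays replicate 3 stood highest, and among control arrays replicate 2 stood lowest.

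**Figure D1:**
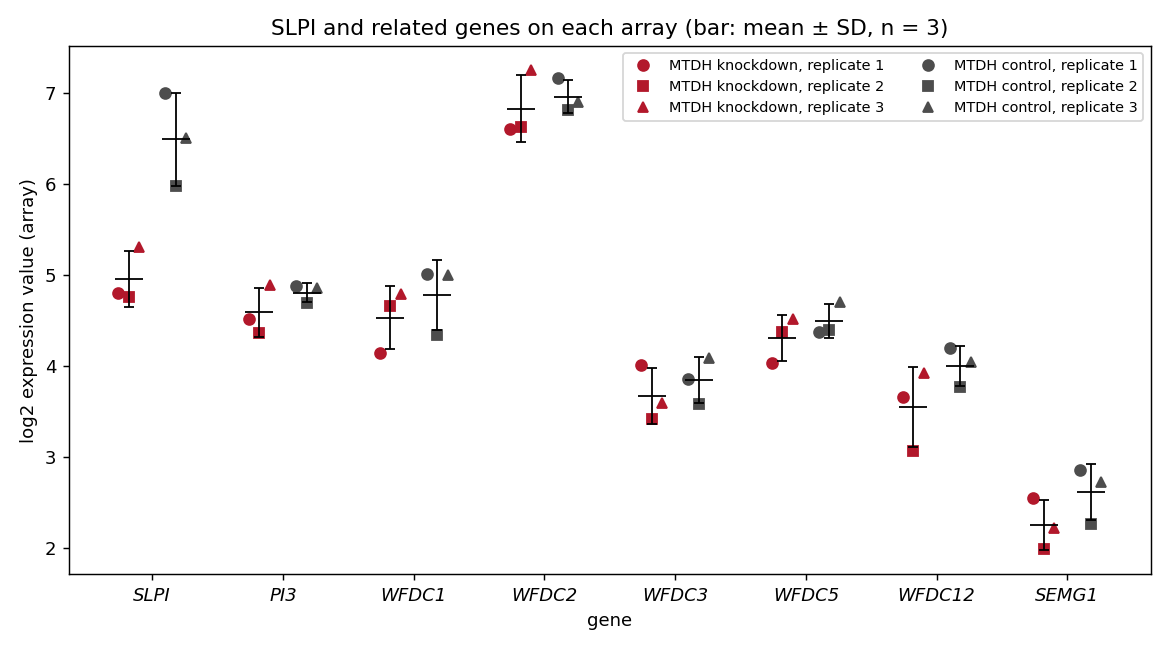
Log2 expression values (vertical axis) of the 8 genes (horizontal axis) on the 3 knockdown arrays (red) and the 3 control arrays (grey), with symbols for the replicate number and bars for the mean ± SD. SLPI is the gene whose groups are separated, at 4.76 to 5.31 in knockdown and 5.98 to 7.0 in control cells, and the groups of the other 7 genes overlap.

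PI3 encodes elafin, the closest functional relative of SLPI. It read 4.52, 4.36 and 4.89 in knockdown cells and 4.88, 4.69 and 4.85 in control cells, so that knockdown replicate 3 was the highest of the 6 arrays. The log2 difference was -0.22 ± 0.18 (SE). The interval of the fit, -0.62 to 0.18, did not reach the value of SLPI, but a modest fall of PI3 lies within it.

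WFDC2 encodes HE4, a secreted protein used as a serum marker of ovarian and endometrial cancer. It was bright in both groups, at 6.60, 6.63 and 7.25 on the knockdown arrays and 7.17, 6.82 and 6.90 on the control arrays. The highest and the lowest of these values were both knockdown arrays. The log2 difference was -0.13 ± 0.21 (SE), with an interval from -0.60 to 0.33. WFDC2 stood at the 86.4th percentile or higher on each array, well above the dim end of the scale.

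WFDC1, which encodes the prostate stromal protein ps20, lies outside the cluster, on chromosome 16. Its values were 4.14, 4.66 and 4.79 in knockdown and 5.01, 4.34 and 5.00 in control cells. The groups overlapped widely, since the second control array was lower than 2 of the knockdown arrays. Its log2 difference was -0.25 ± 0.24 (SE).

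WFDC12 encodes a small WAP protein with antibacterial activity and lies close to SLPI. It read 3.65, 3.06 and 3.93 in knockdown cells, against 4.19, 3.77 and 4.04 in control cells. After SLPI it had the largest difference of the 8 genes, -0.45 ± 0.23 (SE), with an interval from -0.96 to 0.06. Knockdown replicate 3 lay above control replicate 2, and knockdown replicate 2 was the lowest array.

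WFDC5 and WFDC3 encode WAP proteins of less known function. WFDC5 read 4.03, 4.37 and 4.52 in knockdown cells and 4.37, 4.39 and 4.71 in control cells, a log2 difference of -0.18 ± 0.19 (SE). WFDC3 read 4.01, 3.41 and 3.59 in knockdown cells and 3.86, 3.59 and 4.08 in control cells, a log2 difference of -0.17 ± 0.21 (SE). In both genes the groups overlapped.

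SEMG1 encodes semenogelin I, the gel-forming protein of semen, which has no WAP domain but is crosslinked by transglutaminases as elafin is. It was the dimmest of the group, between 1.99 and 2.54 on knockdown arrays and between 2.26 and 2.85 on control arrays, and stood at the 6.88th percentile of an array or lower. A log2 difference of -0.36 ± 0.21 (SE) was estimated. Readings this close to the bottom of the scale leave little room for a lower value, and a fall of SEMG1 was hardly measurable.

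All 8 log2 differences were negative, with a median of -0.24 and a range from -0.45 to -0.13 among the 7 genes other than SLPI. Since negative differences prevailed among the genes in that portion of the table, the sign in the deposited values carries little information. In 1 of the 8 genes, SLPI, every knockdown array lay below every control array, which held for 11.2% of all genes tested and 14.8% of those after the step. The same gene was the 1 of 8 with an adjusted p under 0.05, where 0.597% of all genes passed in either direction and 0.225% with lower values in knockdown. As SLPI had been chosen on this comparison, nothing is read from these counts. The adjusted p of SLPI exceeded 0.05 in 8 of 14 alternative settings, among them the omission of any single array other than control replicate 2. When the columns were quantile normalized separately before and after the step, the median difference of the 7 genes moved to -0.10, that of all genes after the step moved to -0.04, and SLPI stood at -1.47. On that scale all 7 differences stayed negative, where 58.5% of genes after the step were negative. The 7 genes share the same arrays, so this count is given as a description.

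Ratios within an array remove a shift that all genes of the array share. Relative to WFDC2, SLPI read -1.80, -1.87 and -1.94 in knockdown cells, against -0.17, -0.84 and -0.40 in control cells. Relative to PI3 it read 0.28, 0.40 and 0.42 in knockdown and 2.12, 1.29 and 1.65 in control cells. Relative to the mean of the other 7 genes the ratio was 0.71 ± 0.14 in knockdown and 1.99 ± 0.35 in control cells (SD, n = 3 each), a difference of -1.28. The groups did not overlap in any of the 7 ratios of SLPI to another of these genes, whose differences ran from -1.40 to -1.08. All of these ratios contain the SLPI values on which the gene was chosen, so their separation follows largely from that choice. Among knockdown arrays the SD of the ratio ran from 0.07 for WFDC2 and 0.08 for PI3 to 0.42 for SEMG1 and 0.47 for WFDC3, where SLPI itself had 0.31. SLPI, PI3 and WFDC2 had their highest knockdown value in replicate 3. This was not particular to them, since it held for 6 of the 8 genes and for 42.0% of genes after the step.

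The remaining WAP family genes and their companions in the locus, 11 of 14 of which were measured, were listed by family and position, not by how they moved. None passed the test over all genes (limma, Benjamini-Hochberg adjustment), 7 had a negative difference and the median was -0.15. WFDC8 read 2.40, 2.15 and 2.32 in knockdown cells and 2.67, 2.62 and 2.94 in control cells, a log2 difference of -0.45 with an adjusted p of 0.28. WFDC9 read 2.67, 2.38 and 2.63 in knockdown cells and 3.15, 2.73 and 3.04 in control cells, a log2 difference of -0.41 with an adjusted p of 0.34. These were the 2 genes of the 11 in which every knockdown array lay below every control array, beside 11.2% of all genes and 14.8% of those after the step, and both were dim. WFDC10B had a log2 difference of -0.37, WFDC11 of 0.02 and WFDC13 of 0.03.

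EPPIN, whose product joins a WAP to a Kunitz domain and binds semenogelin on sperm, had a log2 difference of -0.15. The Kunitz inhibitor genes SPINT3 and SPINT4 stood at 0.38 and 0.18, and SEMG2, the second semenogelin gene, at -0.14. WFIKKN1 and WFIKKN2, which encode secreted proteins with several inhibitor domains that bind myostatin, lie on chromosomes 16 and 17 and had differences of -0.20 and -0.31. Apart from WFDC8 and WFDC9, the lowest adjusted p of the list was 0.396, that of WFDC10B.

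**Figure D2:**
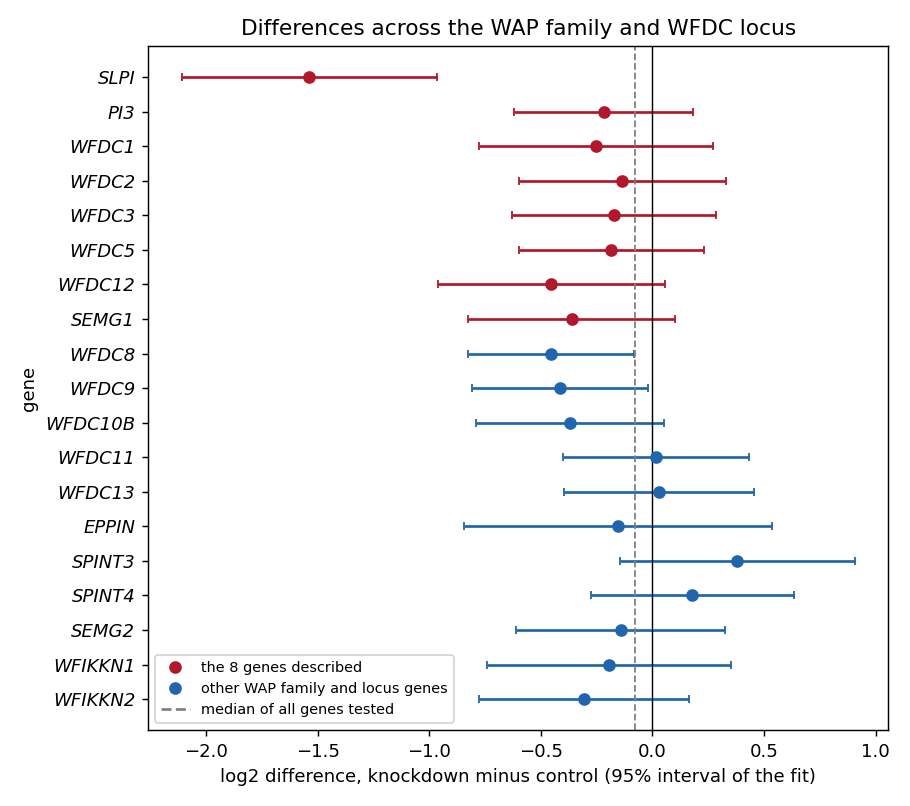
Log2 difference, knockdown minus control (horizontal axis), of the 8 genes (red) and 11 other WAP family and locus genes (blue), with the 95% interval of the fit and the median of all genes tested, -0.08, as a dashed line. SLPI stands at -1.54, and the other 18 genes lie between -0.45 and 0.38.

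None of the measured neighbours of SLPI passed the test. In chromosome order, the 5 genes before SLPI were WFDC5, WFDC12, PI3, SEMG1 and SEMG2 and the 5 after it were MATN4, RBPJL, SDC4, TP53TG5 and PIGT. The matrilin gene MATN4, directly next to SLPI among measured genes, read 4.94, 4.54 and 4.91 in knockdown cells and 5.06, 4.91 and 5.10 in control cells, a log2 difference of -0.22 with an adjusted p of 0.54. SDC4, which encodes the cell surface proteoglycan syndecan-4, had the largest difference of the 10, -0.49 with an adjusted p of 0.36. TP53TG5 had 0.16 and was the exception in sign. In a list of 24 genes from the region that hold no WAP domain, 20 had a negative difference, none passed and the median was -0.18. The list was not exhaustive and left out TP53TG5 and the potassium channel gene KCNK15, which stood at -0.49, as SDC4 did. Within the list the nuclear receptor coactivator gene NCOA5 came next after SDC4, at -0.43 (adjusted p = 0.31). Of the 10 neighbours, RBPJL and PIGT alone had every knockdown array below every control array, at -0.34 and -0.31. This held for 6 of the 24 genes of the list and for 14.8% of genes after the step. The gap between the groups was 0.0018 for RBPJL and 0.18 for PIGT. On the whole of chromosome 20, where 434 genes were tested with a median difference of -0.18, the gene that fell beside SLPI was JAG1, a Notch ligand gene, by 1.01 on the log2 scale (adjusted p = 0.043).

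Genes that work with SLPI were counted over lists chosen with earlier results known but not picked for how they moved, beside the 0.597% called over all genes. Of 27 measured serine proteases of the kinds that SLPI and elafin inhibit, together with kallikreins and related proteases, none passed the test, and the median difference was -0.24. The membrane protease gene TMPRSS4 read 3.42, 3.67 and 3.34 in knockdown and 4.22, 4.06 and 4.27 in control cells, a log2 difference of -0.71 with an adjusted p of 0.11. Its relative TMPRSS2 read 4.95, 5.01 and 4.66 in knockdown and 3.91, 4.13 and 4.46 in control cells, a log2 difference of 0.71 with an adjusted p of 0.17. These 2 genes had the largest differences of the list, in opposite directions. Of the 27 genes 26 had a negative difference, and TMPRSS2 was the exception. Negative differences were found in 60.7% of all genes tested and 73.6% of those after the step. The neutrophil elastase gene ELANE, the principal target of SLPI, had a difference of -0.31 (adjusted p = 0.55) and CTSG, which encodes cathepsin G, of -0.14 (adjusted p = 0.72). Both are genes of the myeloid lineage.

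Among 27 other protease inhibitor genes, SERPINI1 rose and none fell, and the median was -0.18. SERPINI1 encodes neuroserpin, an inhibitor of tissue-type plasminogen activator. It read 4.59, 5.35 and 4.44 in knockdown cells, against 3.58, 3.63 and 3.35 in control cells, a log2 difference of 1.27 ± 0.24 (SE) with an adjusted p of 0.043. It passed without control replicate 2 (adjusted p = 0.036) but not without any other single array, where the adjusted p ran from 0.056 without knockdown replicate 3 to 0.18 without control replicate 1. The epithelial inhibitor genes SPINT1, SPINT2 and SERPINB5 had differences of -0.19, 0.13 and 0.01.

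None of 13 genes for proteins that bind, process or crosslink SLPI or elafin passed, with a median of -0.20. ANXA2, which encodes annexin A2, a membrane partner of SLPI, read 7.51, 7.73 and 7.72 in knockdown and 8.40, 8.16 and 7.76 in control cells, a log2 difference of -0.45 with an adjusted p of 0.34. The transglutaminase gene TGM3 had a difference of -0.48 with an adjusted p of 0.34. GRN, which encodes progranulin, a growth factor that SLPI shields from elastase, had -0.24 with an adjusted p of 0.49.

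Mucosal defence genes, which like SLPI are secreted by epithelia against microbes, were not called in any of 28 cases, and the median was -0.21. Of the 28 genes 26 had a negative difference, beside 60.7% of all genes tested and 73.6% of those after the step. The largest difference was that of LCN2, the siderophore-binding lipocalin, which read 4.71, 4.39 and 4.55 in knockdown and 5.48, 5.10 and 5.02 in control cells. Its log2 difference was -0.65 with an adjusted p of 0.18. LCN2 was 1 of 4 among the 28 with every knockdown array below every control array, beside 11.2% of all genes tested and 14.8% of those after the step. BPIFA1, an airway secretory protein gene, had -0.44 (adjusted p = 0.39). LTF, LYZ and PIGR, for lactoferrin, lysozyme and the immunoglobulin transporter of secretory epithelium, had differences of -0.11, -0.10 and -0.33.

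In the list of secretory products of hormone-responsive endometrium, 2 of 19 genes fell and 17 did not pass, with a median of -0.17. They were the secretoglobin genes SCGB1D2 and SCGB2A1. SCGB1D2 read 3.49, 3.47 and 2.45 in knockdown and 6.66, 6.77 and 6.0 in control cells, and SCGB2A1 read 5.18, 5.36 and 5.47 in knockdown and 7.09, 7.12 and 7.10 in control cells. Their log2 differences were -3.34 and -1.77, each with an adjusted p of 0.0017. PAEP, the glycodelin gene of the secretory phase, was dim in both groups and had -0.08 (adjusted p = 0.84).

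Of 24 transcription factors tied to the promoters of SLPI or elafin, the endometrial steroid receptors included, none passed, with a median of -0.20. KLF5, an epithelial zinc finger factor, came nearest, with 5.75, 5.53 and 5.94 in knockdown and 6.58, 6.51 and 6.65 in control cells, a log2 difference of -0.84 with an adjusted p of 0.065. FOS, a subunit of AP-1, read 4.60, 4.55 and 4.52 in knockdown and 5.25, 4.80 and 5.30 in control cells, a log2 difference of -0.56 with an adjusted p of 0.23. In 3 of the 24 factors, KLF5 and FOS among them, every knockdown array lay below every control array. This held for 11.2% of all genes tested and 14.8% of those after the step. The NF-kB genes NFKB1 and RELA had 0.28 and -0.19, and the receptor genes PGR and ESR1 had -0.18 and -0.21.

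**Figure D3:**
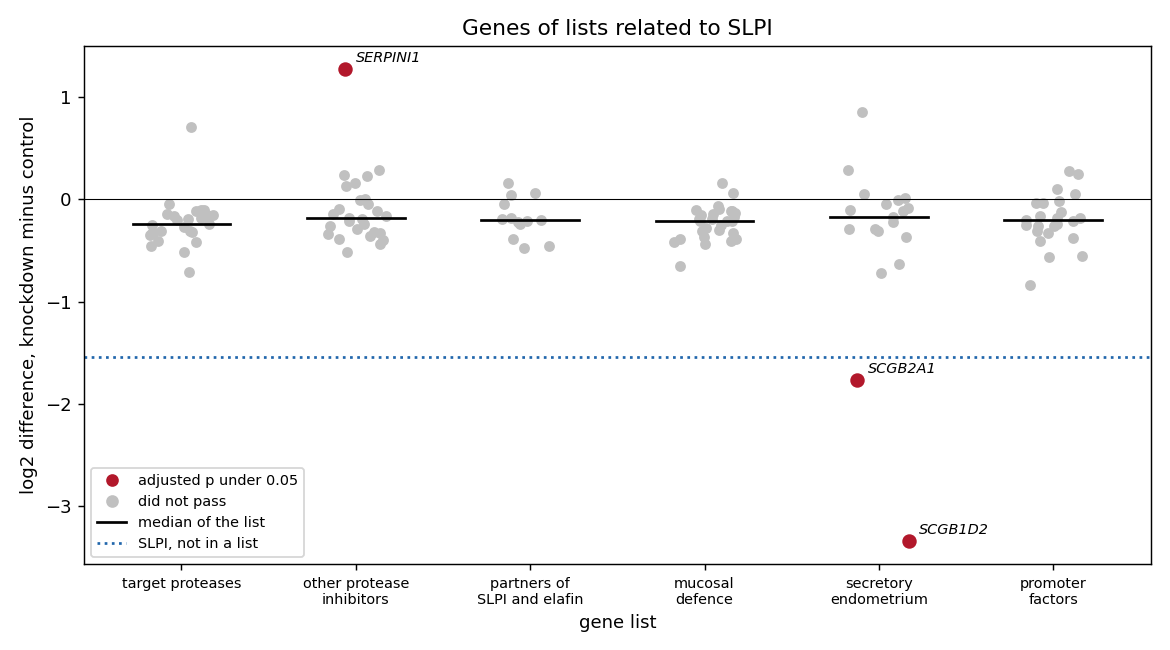
Log2 difference, knockdown minus control (vertical axis), of each measured gene in 6 lists related to SLPI (horizontal axis), with genes past an adjusted p of 0.05 in red, the list median as a black line and SLPI as a dotted line at -1.54. SERPINI1 at 1.27, SCGB2A1 at -1.77 and SCGB1D2 at -3.34 are the genes past the threshold.

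Markers of epithelium and of other cells are given beside SLPI. Of 12 markers of neutrophils and other blood cells, 11 had a negative difference and none passed. So did 8 of 9 fibroblast and smooth muscle markers and 10 of 11 endothelial markers, beside 60.7% of all genes tested and 73.6% of those after the step. The blood cell markers had mean log2 values of 3.65 to 3.98 in knockdown and 3.87 to 4.43 in control cells. The neutrophil granule genes AZU1 and MPO had the largest differences, -0.58 (adjusted p = 0.37) and -0.47 (adjusted p = 0.31), while the leukocyte marker PTPRC averaged 2.47 in knockdown and 2.44 in control cells, below the lower quartile of every array. Of 9 fibroblast and smooth muscle markers none passed, with means of 3.78 to 4.0 in knockdown and 3.84 to 4.28 in control cells, COL1A1 at -0.38 and DES at -0.31. Of 11 endothelial markers none passed, with means of 3.57 to 3.77 in knockdown and 3.62 to 4.19 in control cells, CLDN5 at -0.45 and CDH5 at -0.38. In each of these blood, stromal and endothelial lists, control replicate 3 had the highest mean. Control replicates 1 and 2 had means of 4.01 and 3.87 for blood, 4.01 and 3.84 for stromal and 3.79 and 3.62 for endothelial markers. The lower quartile of the genes tested was 4.06 on control replicate 3 and 3.71 to 3.85 on the other arrays. Of 12 epithelial markers 7 had a negative difference, and the median was -0.10, against -0.08 over all genes tested. The keratin genes KRT19 and KRT8 had differences of -0.87 (adjusted p = 0.084) and -0.55 (adjusted p = 0.22), while EPCAM had 0.36 and CDH1 0.28. KRT19 and KRT8 were the 2 of the 12 with every knockdown array below every control array, beside 11.2% of all genes and 14.8% of those after the step. In 1 of the 12 every knockdown array lay above every control array. The part of these markers in the difference of SLPI was not tested.

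The 3 genes whose pattern was most like that of SLPI over the 6 arrays were found by the root mean square difference between centred log2 values. ANKRD1, which encodes a nuclear ankyrin repeat protein, was nearest at 0.25, with 4.58, 4.47 and 4.54 in knockdown and 6.27, 5.58 and 5.64 in control cells. SYNDIG1 followed at 0.33, with 3.27, 3.37 and 3.29 in knockdown and 4.82, 3.82 and 4.32 in control cells. NRG4, the gene of a growth factor for the ERBB4 receptor, was also at 0.33, with 3.61, 3.83 and 3.65 in knockdown and 5.66, 5.34 and 5.12 in control cells. Since they were picked for their likeness to SLPI over the same 6 arrays, their lower knockdown values restate that choice. Within the group the nearest gene was WFDC12 at 0.59, and the others lay between 0.65 and 0.77, where the median of all genes was 0.82.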

How the data were processed

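RNA from Ishikawa H cells was amplified, given a biotin label and read on Affymetrix arrays that cover whole transcripts, with 3 arrays for MTDH knockdown and 3 for MTDH control. The authors deposited values on a log2 scale, prepared in Partek per the submitters' processing notes. Its version, background correction and normalization: not given in the sources used here. No detection calls were used, and 3 arrays per group limit the precision.

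Groups came from the sample titles. Of 22011 rows, 14432 had exactly 1 gene symbol, and taking the row with the highest mean for each gene left 14232 genes. RefSeq annotation (GRCh38.p14) gave a chromosome to 14202 of them and served for gene order alone. Knockdown was set against control in limma 3.58.1 under R 4.3.3, with Benjamini-Hochberg adjustment over all genes and a threshold of 0.05. The script was tested on simulated data. The alternatives were all rows or the mean of all rows per gene, omission of the dimmest 30% of genes, other scalings, a robust prior with an intensity trend, a block for the replicate number and the omission of each array. The members and lists were chosen with earlier results of these data known. Named were the 8 genes, all measured WAP family genes, the 5 neighbours on each side, the 3 most similar patterns and, from each other list, the changed genes or, where there were none, the 2 largest differences. Other genes were named for their known role or, in the case of JAG1 and KCNK15, after their values were seen.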

Additional observations from a re-analysis of the deposited data

How the results depend on the processing

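SLPI stayed lower in knockdown cells under all 14 alternatives, with a log2 difference from -1.79 to -1.28 when single arrays were left out. For most of them the sign was fixed in advance. Several change only the error or the genes fitted, so that the difference of SLPI could not move from -1.54. With every knockdown array below every control array, leaving out a single array could not reverse the sign of SLPI either. Its adjusted p belongs to the comparison that selected it and is listed as a description. It was above 0.05 in 8 of the 14. The values were -1.54 with all rows of the table fitted (adjusted p = 0.12), -1.59 after quantile normalization (adjusted p = 0.054) and -1.46 after median centring (adjusted p = 0.071). It was also above 0.05 without knockdown replicate 1 (adjusted p = 0.14), knockdown replicate 2 (0.16), knockdown replicate 3 (0.051), control replicate 1 (0.13) or control replicate 3 (0.065), and below it without control replicate 2 (0.0086). The cause was not tested. The other 7 genes gave 95 values under the alternatives, all negative, none past the threshold and all within 1 SD of the reported value. This closeness was partly fixed in advance. Several alternatives cannot move a difference, and leaving out a single array cannot move it by 1 SD.

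The count of changed genes, 85, became 19 with all rows, 41 after median centring, 20, 22 and 20 without knockdown replicates 1, 2 and 3, 12 without control replicate 1 and 233 without control replicate 2. With the replicate block it was 364, and 7 in place of 3 genes of the lists passed. Nothing in the labels says that the replicate numbers mark a shared culture or day, so the numbers were not taken to pair the arrays. Deviations of arrays with the same replicate number correlated at -0.10, 0.47 and 0.31. Knockdown replicates 2 and 3 correlated best with the control array of their own number, against at most 0.20 and -0.12 with another. Knockdown replicate 1 did not, since it reached 0.23 with another number. Whether the arrays are paired remains unknown. SERPINI1 lost its call in 9 of 14 alternatives, and SCGB1D2 and SCGB2A1 in none. Dim genes such as SEMG1 limit what could be seen.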

Other observations

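Control replicate 1 was the highest control array in 6 of 8 genes, beside 20.6% of all genes and 27.9% of genes after the step in row order. After normalization separately before and after the step it was so in 6 of 8, beside 28.9% of genes after the step. Control replicate 2 was the lowest control array in 7 of 8 genes, beside 42.3% of all genes and 55.5% of genes after the step. After that normalization it was so in 5 of 8, beside 33.1% of genes after the step. Among knockdown arrays, replicate 3 was the highest in 6 of 8 genes, beside 37.9% of all genes and 42.0% of genes after the step. It was so in 4 of 8 after that normalization, beside 37.5% of genes after the step. The 8 genes share arrays and a locus and were chosen with results known, so these counts are given as a description.

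Rows of the WAP family with 2 gene symbols were not tested by name. The row shared by RAB40C and WFIKKN1 had a log2 difference of -0.13. The row shared by WFDC10A and WFDC10B read 4.11, 3.37 and 3.21 in knockdown and 3.66, 3.50 and 4.26 in control cells, and the row shared by WFDC6 and EPPIN read 4.02, 3.46 and 4.23 in knockdown and 3.96, 4.07 and 4.77 in control cells. In all 3 the groups overlapped.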
